A study of Homo sapiens with 6 samples.

Results

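Integrins are the receptors by which cells hold on to the extracellular matrix. Each is a heterodimer of an alpha and a beta chain, and the pair decides which matrix protein is bound. The tails inside the cell connect to actin or, for the beta4 chain, to keratin filaments. In gut epithelium, alpha6beta4 and alpha3beta1 bind laminins of the basement membrane, alpha2beta1 binds collagen, alpha5beta1 binds fibronectin, and the alphaV chain pairs with several beta chains in receptors for vitronectin and fibronectin.

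The transcripts of 10 integrin subunits were examined: ITGA2, ITGA3, ITGA5, ITGA6, ITGAV, ITGB1, ITGB3, ITGB4, ITGB5 and ITGB6. They were taken by gene symbol from a table of 17047 genes, which holds 25 integrin subunits in all, 17 alpha and 8 beta chains. HCT116, an established human colorectal carcinoma line, carried either a non-targeting shRNA (shNC, 3 libraries) or a single shRNA against PLEK2 (PLEK2 shRNA, 3 libraries), a pleckstrin family protein of the membrane and cytoskeleton. The shRNAs were delivered in a lentiviral vector, so that both groups are transduced cells, and polyadenylated RNA was read as single 50-base ends. Of the 10 subunits, 8 passed the filter on low counts and were tested, and ITGB3 and ITGB6 did not.

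The sequence of the shRNA is shown first, since a guide can also touch other transcripts through its seed. Capitals mark the bases that the guide's seed pairs with, in the PLEK2 target and in each subunit transcript that holds the same 7 bases, and in the guide they mark the seed itself.
PLEK2 shRNA target: gctggtgtactacAAGCTTGa
guide strand: tCAAGCTTgtagtacaccagc
PLEK2 coding sequence: tggtgtactacAAGCTTGaggggggtcgga
ITGA5 coding sequence: acatcctctacAAGCTTGgattcttcaaac
ITGB6 coding sequence: attgcgcctcaAAGCTTGatccttaagttg
The match in ITGA5 lies at bases 3132 to 3138 of its canonical GENCODE transcript and that in ITGB6 at bases 530 to 536. Both are in coding sequence, and the other 8 subunits hold no AAGCTTG on the sense strand of their canonical transcripts, so no subunit holds one in its 3′ UTR. Of 12478 tested genes with a canonical transcript, 19.7% hold the letters somewhere and 10.6% in the 3′ UTR. A match is a description of the letters and not a measured site.

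PLEK2 itself was lower in every knockdown library. Its level, in CPM (counts scaled to library size, with TMM factors between libraries), was 86.0, 72.6 and 82.9 in shNC replicates 1, 2 and 3 and 16, 32.2 and 34.9 in PLEK2 shRNA replicates 1, 2 and 3, a log2 fold change of -1.54 ± 0.24 (SE, n = 3 and 3). By edgeR's quasi-likelihood test the adjusted p was 0.684, and 0.00106 with the replicate number as a block. Library totals lay between 14377532 and 15602732 counts. Same-numbered libraries deviated from their group means together, and replicate 1 stood apart from replicates 2 and 3 in both groups. Each subunit is therefore given per library and per same-numbered pair, and with and without replicate 1 where a value rests on it. The library labels do not say whether the replicates are separate cultures, so p-values measure only the spread between these libraries, which may be technical, and 3 libraries against 3 cannot give a two-sided exact permutation p below 0.1.

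The labelled cell type was checked against its markers. The 7 tested epithelial markers were EPCAM, CDH1, CLDN4 and the keratins KRT8, KRT18, KRT19 and KRT20. None was called at an adjusted p under 0.05 with the block (edgeR, smallest 0.0841), and 6 had an estimate below 0, beside 50.4% of all tested genes. The summed FPKM (a count scaled to transcript length and library total) of the 8 epithelial markers in the table was 5110 to 5876 in shNC and 4264 to 5435 in PLEK2 shRNA. Most of this sum came from KRT8, KRT18 and KRT19. Other markers of the list were low or absent. KRT20 had 0.66 to 1.26 FPKM, VIL1 had at most 0.08 FPKM and was not tested, and CDX1 was not in the table. Fibroblast markers summed to 7.54 to 9.96 and 7.26 to 8.81 FPKM, endothelial markers to 0.11 to 0.19 and 0.12 to 0.25, and leukocyte and platelet markers to 1.91 to 2.82 and 1.79 to 3.01. The part of the epithelial sum in the subunits' values was not tested. In RNA from whole cultures, fewer cells of a type and less RNA per cell cannot be told apart.

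Per transcript length, HCT116 cells held 3 subunits well above the rest. ITGB1, the beta chain shared by the collagen, fibronectin and several laminin receptors, had 172 ± 24.7 FPKM in shNC (SD, n = 3), ITGA3 124 ± 18.3 and ITGB4 109 ± 4.77. These are high levels for the cell as a whole. By mean FPKM over all 6 libraries of both groups, the 3 stood at or above 97.0%, 95.1% and 94.1% of all tested genes. The shNC ranges of ITGA3 and ITGB4 overlapped, so their order is not resolved, while ITGB1 lay above both in every library of its group.

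A middle tier followed. ITGA5, the fibronectin receptor's alpha chain, had 35.7 ± 2.29 FPKM, ITGA6 25.3 ± 5.55, ITGB5, a partner of alphaV, 19.6 ± 1.97 and ITGA2 12.8 ± 7.48. The ranges of ITGA6 and ITGB5 overlapped in shNC, as did those of ITGB5 and ITGA2. ITGAV was the lowest tested subunit at 5.60 ± 0.962 FPKM, below its partner ITGB5 in every library. The order of the means was the same in PLEK2 shRNA, where ITGB1 had 181 ± 11.8, ITGA3 112 ± 14.2 and ITGB4 90.3 ± 10.3 FPKM (SD, n = 3), and there the ranges of ITGA3 and ITGB4, of ITGB5 and ITGA2 and of ITGA2 and ITGAV overlapped, while those of ITGA6 and ITGB5 did not.

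**Figure D1:**
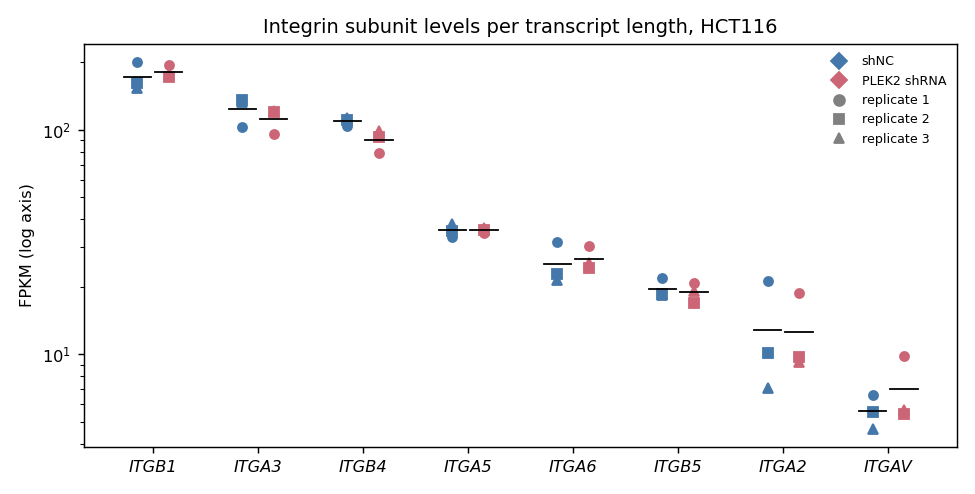
FPKM of the 8 tested integrin subunits (log axis) in shNC (blue) and PLEK2 shRNA (red) libraries, with the replicate number as the symbol and the group mean as a line. ITGB1, ITGA3 and ITGB4 form the upper tier with group means from 90.3 to 181 FPKM, and ITGAV the lowest with 5.60 and 6.98 FPKM.

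The 2 untested subunits were barely detected. ITGB3 (chr17:47253827-47313743, GRCh38), the beta chain of the platelet fibrinogen receptor and of alphaVbeta3, had 4, 2 and 8 counts in shNC and 10, 3 and 4 in PLEK2 shRNA. ITGB6 (chr2:160099667-160200313), the epithelial partner of alphaV that activates TGF-beta, had 1 count, in shNC replicate 2. A library without a count allows up to 3 counts, which is 0.191 to 0.212 CPM in these libraries, so for ITGB6 no difference could be detected at this depth. Such floors cover counting error only. In GENCODE, exons of ITGB3 and ITGB6 also overlap a same-strand gene model by 2266 and 966 bases, so their few reads are uncertain in origin.

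Without the block, edgeR called none of the 8 tested subunits at an adjusted p under 0.05, and none of 12959 genes (0%). At an unadjusted p under 0.05 it had 400 genes, or 3.09%, 288 of them lower (2.22%), among them ITGB4 as the one subunit, and DESeq2's Wald test called 12 genes (0.0926%) and no subunit. With the replicate block edgeR called 110 genes (0.849%), 94 of them lower (0.725%), and 1 subunit, ITGB4. Over the 8 subunits the median log2 fold change with the block was -0.01, against -0.00178 over all genes tested, and with a GC term added it was -0.03 against 0.00791.

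The laminin-binding chain ITGB4 (chr17:75721328-75757818, 40 exons in its canonical transcript) builds hemidesmosomes together with alpha6. It had 595, 635 and 638 CPM in shNC replicates 1 to 3 and 437, 522 and 554 CPM in PLEK2 shRNA replicates 1 to 3. Every knockdown library lay below every shNC library, which was so for none of the other 7 tested members of the 10 and for 5.12% of all tested genes in this direction (4.08% in the other and 9.21% in either). The log2 ratios within the pairs were -0.45, -0.28 and -0.20.

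The size of this difference hardly moved with the block, while its error did. The log2 fold change of ITGB4 was -0.30 ± 0.097 (SE, n = 3 and 3, edgeR adjusted p = 0.968, unadjusted p = 0.0124) without the block and -0.31 ± 0.058 (edgeR adjusted p = 0.0287, 95% interval -0.44 to -0.19) with it, lower in 3 of 3 pairs. The exact two-sided permutation p over the 6 libraries was 0.1, the smallest this design allows. With replicate 1 left out of both groups the blocked log2 fold change was -0.24 (edgeR adjusted p = 0.00531), and without replicate 3 it was -0.35 (0.00192). Without replicate 2 in both groups it was -0.31 and the call was lost (edgeR adjusted p = 0.274). Over all genes these blocked fits called 528 without replicate 1, 297 without replicate 3 and 18 without replicate 2, beside 110 with all libraries.

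GC content moved with this comparison. The transcript of ITGB4 is 63.6% GC, the highest among the 10 subunits, where the median of tested genes is 49.1%. Across genes, log2 CPM changed with GC content by -0.11, 0.10 and 0.13 per 10 percentage points in shNC replicates 1 to 3, relative to the mean of all libraries, and by -0.19, 0.04 and 0.03 in PLEK2 shRNA replicates 1 to 3. The slope was thus lower in the PLEK2 shRNA library of every pair, by 0.09, 0.06 and 0.10 on the log2 scale. With a linear GC term for each library and the block, the log2 fold change of ITGB4 was -0.19 ± 0.057 (SE) with an adjusted p of 0.278 in edgeR, no subunit was called, and 43 of 12478 genes were (0.345%). The 95% interval of ITGB4 in that fit was -0.31 to -0.07.

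ITGA3 (chr17:50055968-50090481), the alpha chain of the laminin receptor alpha3beta1, had 499, 651 and 621 CPM in shNC replicates 1 to 3 and 448, 563 and 567 CPM in PLEK2 shRNA replicates 1 to 3. Each knockdown library lay below the shNC library of its number, but the groups overlapped because shNC replicate 1 was lower than 2 knockdown libraries. The pair log2 ratios were -0.15, -0.21 and -0.13. With the block the log2 fold change was -0.17 ± 0.051 (SE, n = 3 pairs, edgeR adjusted p = 0.125, unadjusted p = 0.00683). In that fit 18.3% of all tested genes had an unadjusted p under 0.05, among them ITGB4, ITGA3 and, with an estimate above 0, ITGAV (edgeR unadjusted p = 0.0112). With the GC term and the block the log2 fold change of ITGA3 was -0.07 (edgeR adjusted p = 0.712). This transcript is 60.9% GC. ITGA3 and ITGB4 were the 2 of 8 subunits with 1 sign in all 3 pairs, both lower, where 40.9% of all tested genes had 1 sign, 21.1% lower and 19.9% higher.

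ITGA6 (chr2:172427354-172506459), the alpha partner of beta4, did not show the difference of ITGB4. It had 171, 124 and 115 CPM in shNC replicates 1 to 3 and 159, 130 and 134 CPM in PLEK2 shRNA replicates 1 to 3. The knockdown values lay within the shNC range, and the pairs differed in sign, with log2 ratios of -0.11, 0.06 and 0.22. With the block the log2 fold change was 0.06 (95% interval -0.08 to 0.20, edgeR adjusted p = 0.666). As FPKM, ITGB4 stood at 3.27, 4.87 and 5.24 times ITGA6 in shNC replicates 1 to 3 and at 2.59, 3.82 and 3.90 times in PLEK2 shRNA replicates 1 to 3. The ratio was lower in each pair, while the groups overlapped through shNC replicate 1. It sets a 63.6% GC transcript against one of 42.5%, and the part of the GC trend in it was not tested.

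The main beta chain, ITGB1 (chr10:32887273-33005792), also did not pass the test. It had 756, 614 and 574 CPM in shNC replicates 1 to 3 and 710, 640 and 653 CPM in PLEK2 shRNA replicates 1 to 3. Again the knockdown libraries lay inside the shNC range, and the pair log2 ratios were -0.09, 0.06 and 0.19. The blocked log2 fold change was 0.05 (95% interval -0.08 to 0.18, edgeR adjusted p = 0.677).

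The proportion of the 2 abundant beta chains was compared between the groups without a test. The FPKM ratio of ITGB4 to ITGB1 was 0.519, 0.684 and 0.735 in shNC replicates 1 to 3 and 0.406, 0.538 and 0.560 in PLEK2 shRNA replicates 1 to 3. It was lower in the knockdown library of every pair, while the groups overlapped through shNC replicate 1. Of the summed FPKM of all beta chains, ITGB4 took 31.8% to 39.5% in shNC and 26.8% to 33.5% in PLEK2 shRNA, and ITGB1 took 53.8% to 61.3% and 59.8% to 65.9%. The ratio sets a 63.6% GC transcript against one of 39.5%, so that the GC trend moves with it, and its part in the ratio was not tested.

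**Figure D2:**
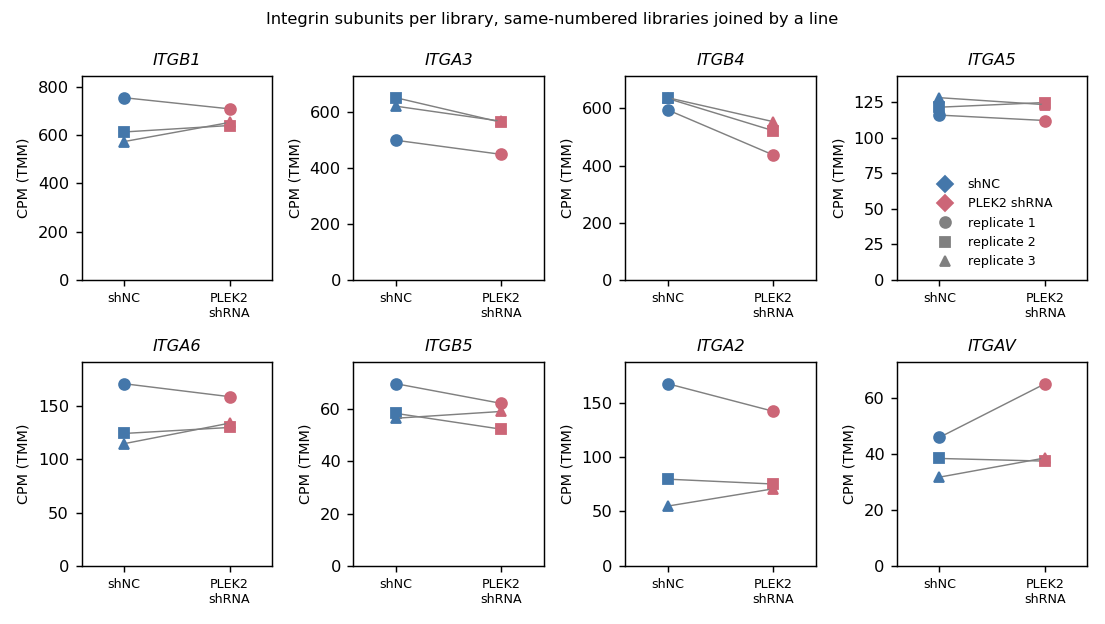
TMM-scaled CPM of the 8 tested subunits per library, with a line from each shNC library (blue) to the PLEK2 shRNA library of the same number (red) and each vertical axis starting at 0. All 3 lines fall for ITGB4 and ITGA3, and for ITGB4 alone the groups do not overlap.

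The collagen receptor chain ITGA2 (chr5:52989340-53094779) differed far more between replicates than between groups. Its 167, 79.6 and 54.8 CPM in shNC replicates 1 to 3 stood beside 142, 75.2 and 70.8 CPM in PLEK2 shRNA replicates 1 to 3. Replicate 1 was 2.53 times the mean of replicates 2 and 3 in shNC and 1.95 times in PLEK2 shRNA, and the highest of the 6 libraries was 3.05 times the lowest. The pair log2 ratios of -0.24, -0.08 and 0.37 had no common sign. The log2 fold change was -0.07 (95% interval -0.98 to 0.84) without the block and -0.00322 (95% interval -0.20 to 0.19) with it (edgeR adjusted p = 0.992 and 0.990).

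ITGA5 (chr12:54395261-54419266) was the steadiest subunit. It had 116, 121 and 128 CPM in shNC replicates 1 to 3 and 112, 125 and 123 CPM in PLEK2 shRNA replicates 1 to 3, a coefficient of variation of 4.9% over the 6 libraries. The blocked log2 fold change was -0.02 with a 95% interval of -0.14 to 0.09 (edgeR adjusted p = 0.868), and the estimate is above 0 with library totals in place of TMM. ITGA5 is the tested subunit with the seed match in its coding sequence.

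The alphaV chain gave the one estimate above 0.1 on the log2 scale. ITGAV (chr2:186590010-186680901) had 46.0, 38.4 and 31.7 CPM in shNC replicates 1 to 3 and 65.2, 37.4 and 38.6 CPM in PLEK2 shRNA replicates 1 to 3. Most of the group difference lay in PLEK2 shRNA replicate 1, and the pair log2 ratios were 0.50, -0.04 and 0.28. The log2 fold change was 0.28 ± 0.22 (SE, edgeR adjusted p = 0.968) without the block and 0.26 ± 0.089 (SE, edgeR adjusted p = 0.152) with it, and without PLEK2 shRNA replicate 1 the unblocked estimate was -0.03. With a replicate number left out of both groups the blocked estimate was 0.13 without replicate 1 and 0.41 without replicate 2. At 38.3% its transcript has the lowest GC content of the 10 subunits, and with the GC term and the block the log2 fold change was 0.18 (edgeR adjusted p = 0.535).

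ITGB5 (chr3:124761948-124901418), which pairs with alphaV in a vitronectin receptor, had 69.7, 58.4 and 56.5 CPM in shNC replicates 1 to 3 and 62.2, 52.3 and 59.1 CPM in PLEK2 shRNA replicates 1 to 3. The groups overlapped, and the pair log2 ratios were -0.17, -0.16 and 0.07. With the block the log2 fold change was -0.09 (95% interval -0.23 to 0.05, edgeR adjusted p = 0.503).

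**Figure D3:**
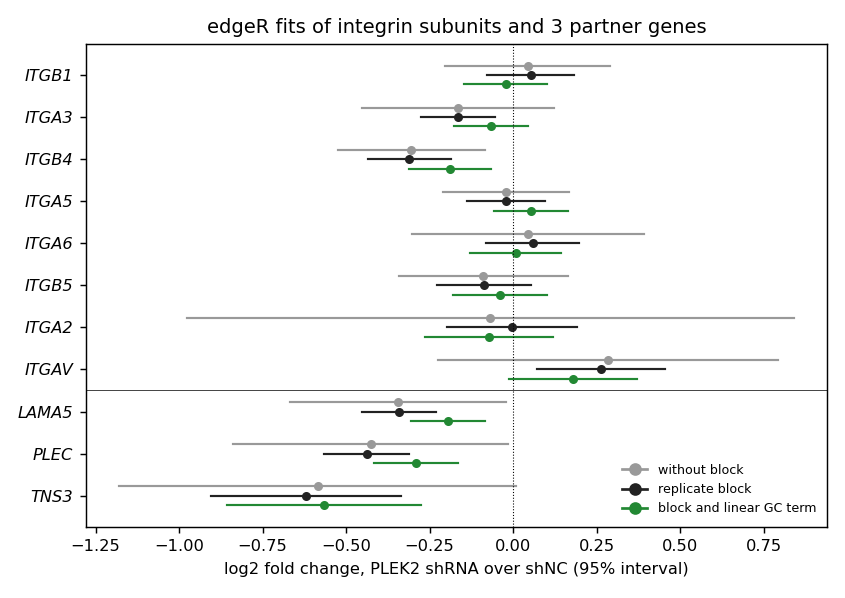
Log2 fold change of PLEK2 shRNA over shNC with its 95% interval in 3 edgeR fits, without the block (grey), with the replicate block (black) and with the block and a linear GC term (green), for the 8 tested subunits and the partner genes LAMA5, PLEC and TNS3. ITGB4 lies at -0.30, -0.31 and -0.19 in the 3 fits, and the block narrows the interval of ITGA2 from -0.98 to 0.84 to -0.20 to 0.19.

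Replicate 1 stood apart from the other libraries for most subunits. Both replicate 1 libraries lay above the other 4 libraries for ITGA2, ITGA6, ITGAV, ITGB1 and ITGB5, and below them for ITGA3 and ITGA5. These are 7 of 8 subunits, where 47.3% of all tested genes had both replicate 1 libraries on 1 side (23.4% above and 23.9% below). For ITGA6 the fold of replicate 1 over replicates 2 and 3 was 1.43 in shNC and 1.2 in PLEK2 shRNA, for ITGAV 1.32 and 1.71, and for ITGB1 1.27 and 1.10. ITGA3 stood at 0.785 and 0.794, and ITGB4 at 0.935 and 0.813 with replicate 1 not apart from the other libraries. The 4 tested subunits with a GC content under the median of tested genes, ITGAV, ITGB1, ITGA2 and ITGA6, were all higher in replicate 1. Of the 4 above it, ITGB5 was higher and ITGA5, ITGA3 and ITGB4 were lower. This is not particular to the subunits. Across 12478 genes log2 CPM in replicate 1 changed with GC content by -0.11 (shNC) and -0.19 (PLEK2 shRNA) per 10 percentage points. The part of that trend in the subunits' values was not tested.

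**Figure D4:**
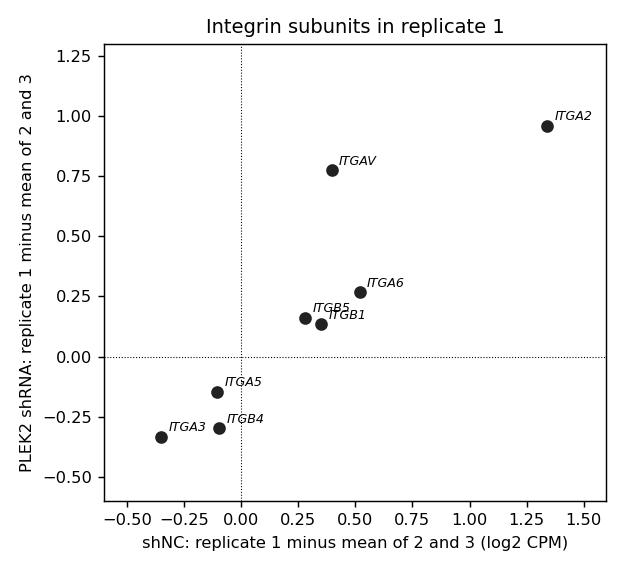
Difference in log2 CPM between replicate 1 and the mean of replicates 2 and 3, in shNC (horizontal axis) and in PLEK2 shRNA (vertical axis), for the 8 tested subunits. ITGA2 lies farthest out at 1.34 and 0.96, and ITGA3 lies lowest on both axes at -0.35 and -0.33.

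ITGA3 was the highest alpha chain by FPKM in every library, and its share differed by replicate. Of the summed FPKM of all alpha chains, ITGA3 took 51.1%, 62.5% and 62.6% in shNC replicates 1 to 3 and 48.8%, 59.5% and 59.0% in PLEK2 shRNA replicates 1 to 3. The ratio of ITGA3 to ITGA2 was 4.83, 13.4 and 18.8 in shNC and 5.12, 12.3 and 13.2 in PLEK2 shRNA, in the order of the replicate numbers. Replicate 1 of both groups thus held relatively more of the collagen-binding chain, and the difference in this ratio within the pairs had no common sign. The ratio sets a 60.9% GC transcript against one of 40.1%, and the part of the GC trend in it was not tested.

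Integrin subunits outside the 10 added little. Together they made up 1.09% to 1.70% of the summed FPKM of all integrin chains in a library. ITGA7, another laminin receptor chain, reached 3.13 FPKM and ITGAE, which pairs with beta7, 2.15 FPKM at most. ITGA1, ITGA2B, ITGA9, ITGA10, ITGAX, ITGB7 and ITGB8 passed the filter with at most 0.98 FPKM. Of these 9 tested subunits none was called with or without the block, and the smallest adjusted p-values with the block were 0.431 for ITGA1 (log2 fold change 0.71) and 0.506 for ITGAX (-0.30) in edgeR. Both estimates rested on single replicates, since with the block ITGA1 was 0.06 without replicate 1 and 1.34 without replicate 3, and ITGAX was -0.51 without replicate 1 and -0.07 without replicate 3. For ITGAE every knockdown library lay below every shNC library, at 8.96, 8.34 and 9.33 CPM against 9.386, 9.388 and 10.6 CPM. That was so for 5.12% of all tested genes in this direction, and as FPKM the ITGAE groups overlapped. With the block the log2 fold change of ITGAE was -0.14 (edgeR adjusted p = 0.550). Another 6, ITGA4, ITGA11, ITGAD, ITGAL, ITGAM and the leukocyte beta chain ITGB2, did not pass the filter.

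The matrix proteins, adaptors and membrane partners of integrins were counted in the same fits. With the block, 0.725% of all tested genes were called lower, and of 15 tested matrix ligands 1 was, LAMA5, the alpha5 chain of epithelial laminins. It had 276, 383 and 362 CPM in shNC replicates 1 to 3 and 225, 293 and 286 CPM in PLEK2 shRNA replicates 1 to 3, a blocked log2 fold change of -0.34 ± 0.051 (SE, edgeR adjusted p = 0.0101). Exons of LAMA5 overlap ADRM1 on the opposite strand by 244 bases, and strand use in the counting is not given in the sources used here.

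Among 12 tested genes of the hemidesmosome and lateral partners, beside 0.725% of all tested genes, 1 was called lower with the block, PLEC. It encodes plectin, which ties beta4 to keratin filaments. It had 1690, 2420 and 2142 CPM in shNC replicates 1 to 3 and 1148, 1802 and 1701 CPM in PLEK2 shRNA replicates 1 to 3, a blocked log2 fold change of -0.44 ± 0.059 (SE, edgeR adjusted p = 0.00413). For both LAMA5 and PLEC each pair was lower in the knockdown, while the groups overlapped through shNC replicate 1.

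Of 27 tested adaptors and kinases, again beside 0.725% of all tested genes, 1 was called lower with the block, TNS3, a tensin that binds beta chain tails. It had 18.7, 24.1 and 22.5 CPM in shNC replicates 1 to 3 and 8.20, 17.9 and 17.4 CPM in PLEK2 shRNA replicates 1 to 3. The groups did not overlap, as for 5.12% of all tested genes in this direction and 9.21% in either. In this list the groups also did not overlap in CPM for PXN, FLNA and SHARPIN, which were lower, and for PTK2, which was higher. As FPKM the groups of FLNA and of SHARPIN overlapped, and those of PXN and PTK2 did not. The blocked log2 fold change of TNS3 was -0.62 ± 0.13 (SE, edgeR adjusted p = 0.0488), and with DESeq2's size factors in the same fit the adjusted p was 0.0582. Replicate 1 carried much of the size, since without it in both groups the blocked value was -0.39 (edgeR adjusted p = 0.0206). That fit called 528 genes in all. Without PLEK2 shRNA replicate 1 the unblocked value of TNS3 was -0.30 in place of -0.58.

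None of these 3 genes was called without the block, where each had an edgeR adjusted p of 0.968. The blocked calls were lost with replicate 2 left out of both groups, in a fit that called 18 genes in all. There the log2 fold changes were -0.31 for LAMA5, -0.43 for PLEC and -0.73 for TNS3, with edgeR adjusted p-values of 0.248, 0.146 and 0.224. The GC term with the block gave -0.20, -0.29 and -0.57 on the log2 scale with adjusted p-values of 0.189, 0.0673 and 0.138, and the transcripts are 66.4%, 66.8% and 55.5% GC. Median blocked log2 fold changes were 0.00153 for the other integrin subunits, -0.12 for the ligands, -0.06 for the adaptors and kinases and -0.10 for the hemidesmosome and lateral partners, beside -0.00178 over all genes tested. With the GC term and the block these medians were 0.10, -0.06, -0.05 and -0.04, beside 0.00791 over all genes tested. No gene of these lists was called higher in either fit.

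**Figure D5:**
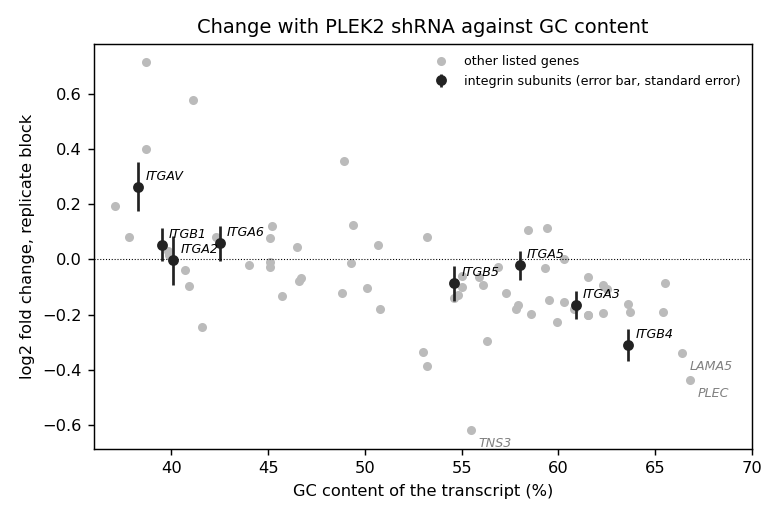
Blocked log2 fold change of PLEK2 shRNA over shNC against the GC content of the canonical transcript, for the 8 tested subunits (black, with standard errors) and the other tested genes of the lists (grey). The subunits run from ITGAV at 38.3% GC and 0.26 to ITGB4 at 63.6% GC and -0.31, and LAMA5 and PLEC lie beyond ITGB4 on both axes.

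The 3 genes that followed ITGB4 most closely over the 6 libraries, by log2 CPM, were MCRS1 (Pearson's r = 0.996), DDX54 (0.994) and PPP1R8 (0.993), given as a description over 6 libraries that share their depth and base composition trends. Their blocked log2 fold changes were -0.36, -0.18 and -0.54, given without a test because genes chosen for following ITGB4 over both groups largely share its difference between them. Their GC contents were 57.3%, 60.6% and 46.5%.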

How the data were processed

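Polyadenylated RNA of HCT116 cells was sequenced in 3 shNC and 3 PLEK2 shRNA libraries, grouped by the submitters' labels. The authors deposited estimated counts per gene, not normalized (84.5% to 85.8% whole in a library), and values read here as FPKM, to 2 decimals. The submitters' processing notes name HISAT2 2.0.4, Bowtie2 2.2.5, RSEM 1.2.12 and DESeq2 1.4.5 and the mouse build GRCm38.p6, although the gene symbols are human; the annotation is not given in the sources used here. Coordinates, GC content and sequences were taken from GENCODE 44 (GRCh38), and the authors may have counted on another build.

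Counts were rounded. The filterByExpr defaults kept 12959 of 17047 genes, TMM factors were 0.984 to 1.021, and edgeR 4.0.16 (quasi-likelihood test, Benjamini-Hochberg over all genes tested) compared the groups without a block. The standard error was the log2 fold change divided by the square root of F, and pair ratios used a prior count of 2. Replicate numbers were read as pairs, because after subtracting each group's mean the log2 CPM of 10161 genes correlated at 0.736, 0.558 and 0.554 for same-numbered libraries and at -0.629 to 0.358 otherwise. Deviations from a mean of 3 libraries cancel within a group, so the low end of that range is partly set by the subtraction. Between replicates 2 and 3 the values were 0.355 and 0.358, so these 2 numbers are less clearly told apart than replicate 1. The pairing comes from the labels' numbers and these values, since no source states a shared day or batch. Alternatives were the replicate block, DESeq2 1.42.0, limma 3.58.1 on log2(FPKM + 1), other scalings and filters and leaving out libraries; a GC term was added after seeing the data. R 4.3.3 and Python 3.11.15 were used, and the tests were tried on simulated data.

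The 10 subunits and the gene lists, written by hand, were chosen with earlier results of these data known. All subunits were named, and from each other list the genes with an adjusted p under 0.05 in either fit or, with none, the 2 smallest; the 3 genes nearest to a called subunit were named by Pearson's r. The group means deposited beside the libraries were not used.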

Additional observations from a re-analysis of the deposited data

How the results depend on the processing

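The order of the 10 subunit levels and the 2 subunits with 1 sign in all 3 pairs were the same under each alternative scaling, unit or left-out library that was run for them. The replicate block raised the count of all genes called from 0 to 110, to 192 with library totals, 85 with DESeq2's size factors, 57 with DESeq2's Wald test, 20 with limma-trend and 43 with a GC term (added after seeing the data). Without the block the count was 12 with DESeq2's Wald test and 1 with a GC term. Leaving out libraries gave 0 to 528 genes, with 528, 18 and 297 for the blocked fit without replicates 1, 2 and 3.

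For the subunits the block raised the count from 0 to 1, ITGB4, and so did the block with library totals, DESeq2's size factors or DESeq2's Wald test, at log2 fold changes of -0.31, -0.28, -0.30 and -0.30. With limma-trend and the block (adjusted p = 0.089) and with the GC term and the block ITGB4 was not called. Leaving out libraries gave 0 to 1 subunits and -0.38 to -0.21 for ITGB4 (with the block, -0.24 without replicate 1 and -0.35 without replicate 3 in both groups). In the lists of ligands (15 tested), adaptors (27) and hemidesmosome partners (12) the block gave 1 gene each, beside 0.849% of all tested genes. Left-out libraries gave 0 to 2, 0 to 2 and 0 to 3. The most ligands and partners came without replicate 1, where 528 genes were called in all. The most adaptors came without replicate 3, where 297 were. The block with library totals gave 1 in each list, with DESeq2's size factors or Wald test 1 in the ligands and 1 in the partners, and with limma-trend 1 in the partners. Apart from PLEK2, ITGB4 and LAMA5, PLEC and TNS3, the block changed no other call among the genes named from these lists.

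Estimates near 0 changed sign. ITGA2, -0.07 without the block, was 0.0207 with DESeq2 and the block, 0.0377 with limma-trend with and without the block, 0.0286 with library totals and the block, 0.00499 with DESeq2's size factors and the block, and -0.47 to 0.53 with libraries left out. ITGA5 was 0.00893 and 0.00920 with library totals without and with the block, 0.00371 with limma-trend, 0.0535 and 0.0539 with the GC term without and with the block, and -0.0497 to 0.0260 with libraries left out. With libraries left out ITGA6 ranged from -0.0580 to 0.25, ITGAV from -0.0257 to 0.44, ITGB1 from -0.0269 to 0.18 and ITGB5 from -0.144 to 0.0237 without the block. With the block and a replicate number left out of both groups, ITGA2 was 0.137 without replicate 1 and 0.0552 without replicate 2, and without replicate 3 ITGA5 was 0.00571, ITGA6 -0.0130 and ITGB1 -0.00468. With the GC term ITGA6 was -0.000226 without the block, and ITGB1 was -0.0225 without and -0.0220 with it. The cause of these changes was not tested. The tested subunits had 458 to 11599 counts in a library, and ITGB3 and ITGB6 had at most 10 and 1, where depth limits any comparison.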
